A study of Mus musculus with 70 samples.

Results

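The 8 genes described here, Mbp, Mobp, Mal, Cldn11, Cnp, Mag, Mog and Ugt8a, encode proteins that build, stabilise or supply the myelin sheath. They were taken by symbol from a fixed list of myelin genes, chosen with earlier results of these data known. All 8 were found among the 14260 genes of the deposited table of normalized counts from mouse hippocampus, and all 8 were kept in every test.

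Myelin is the membrane that oligodendrocytes of the central nervous system wrap around axons, where it speeds conduction and supports the axon metabolically. Mbp, a small basic protein, compacts the inner faces of the membrane, and Mobp is a second basic protein of compact myelin. Mal is a lipid-binding proteolipid of sorting vesicles, and Cldn11 is the tight-junction claudin of the myelin lamellae. Cnp is a phosphodiesterase of non-compact myelin, Mag is an adhesion protein on the membrane that faces the axon, and Mog is a glycoprotein on the outermost surface of the sheath. Ugt8a is the galactosyltransferase that makes galactosylceramide, the characteristic glycolipid of myelin, and it is the one enzyme of lipid synthesis in the group.

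The mice were APP23 transgenics (TG, B6.Cg-Tg(Thy1-APP)3Somm/J), in which the neuronal Thy1 promoter drives a human amyloid precursor protein, and their non-transgenic littermates (NTG). They were housed singly in a light-dark cycle. Animals on ad libitum feeding (ALF) had free access to chow. Animals on time-restricted feeding (TRF) could eat for 6 h a day, from ZT15 to ZT21, starting at 6 to 9 months of age, where ZT is hours after lights on. All were killed at 10 to 13 months of age at ZT0, ZT6, ZT12 or ZT18, and RNA came from the hippocampus of one hemibrain. There were 16 NTG mice on ALF, 16 NTG mice on TRF, 19 TG mice on ALF and 18 TG mice on TRF. In that order of groups, 7, 6, 6 and 6 animals were killed at ZT0, 1, 2, 4 and 4 at ZT6, 6, 6, 6 and 5 at ZT12, and 2, 2, 3 and 3 at ZT18. The study used both sexes and placed some animals in constant darkness earlier. The labels give neither for a single animal, so their balance over groups and times is unknown. Neither was separated here from the spread between animals or from the differences between groups.

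The normalized counts summed to 35.0 M to 42.4 M per animal. Thy1, whose promoter drives the transgene, was at 101986 to 171318 in the 37 TG animals and 14727 to 29068 in the 32 NTG animals, so that this row separated every animal by its label. Markers of hippocampal neurons were present in every animal: Prox1 of dentate granule cells at 885 or more, Neurod6 of pyramidal cells at 3410 or more and Wfs1 of CA1 at 3105 or more. Summed levels of 19 choroid plexus markers ranged from 2108 to 247379 per animal, with a low end of 2108 to 2379 and a high end of 186797 to 247379 in the 4 groups. The animals carry number series in their titles (under 100, 100s, 200s and 300s). All 21 animals killed at ZT6 or ZT18 belong to the 300s, which hold only 2 animals at ZT0 and 1 at ZT12, so ZT6 and ZT18 are tied to ZT0 and ZT12 within a series by 3 animals alone.

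Levels of different genes were compared per kilobase of annotated exon. On that scale Mbp had a mean of 13245 normalized counts per kb over the 69 animals, the highest of the 8. Cnp was at 3657 per kb, Mal at 3182, Cldn11 at 2919, Mobp at 1801, Mag at 1486 and Mog at 1259. Ugt8a was the lowest of the 8, at 486 per kb. Exons of Cnp overlap those of Dnajc7 on the other strand over 154 bases, and reads there could not be told apart without strand. Exons of Mobp overlap those of Gm38642, which has no normalized counts here, over 79 bases on the same strand.

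Over all 69 animals the normalized count of Mbp ran from 69103 to 217141 with a median of 110899. Mobp ran from 7757 to 27337 with a median of 11951, and Cnp from 8174 to 20837 with a median of 13059. Mal ran from 5564 to 13853 around a median of 8870, and Cldn11 from 2907 to 9653 around 5470. One animal, NTG_ALF_325 (NTG on ALF, killed at ZT18), was the highest of the 69 for each of the 8 genes. In that animal the 8 genes made up 0.877% of all normalized counts, against a median of 0.447%, and its summed level of 12 neuron markers, 355297, was the lowest of any animal. At the low end, NTG_ALF_107 had the lowest Mbp and the lowest Cnp. Ugt8a varied most between animals, with a coefficient of variation of 25.2%, and Mal least, with 16.2%.

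**Figure D1:**
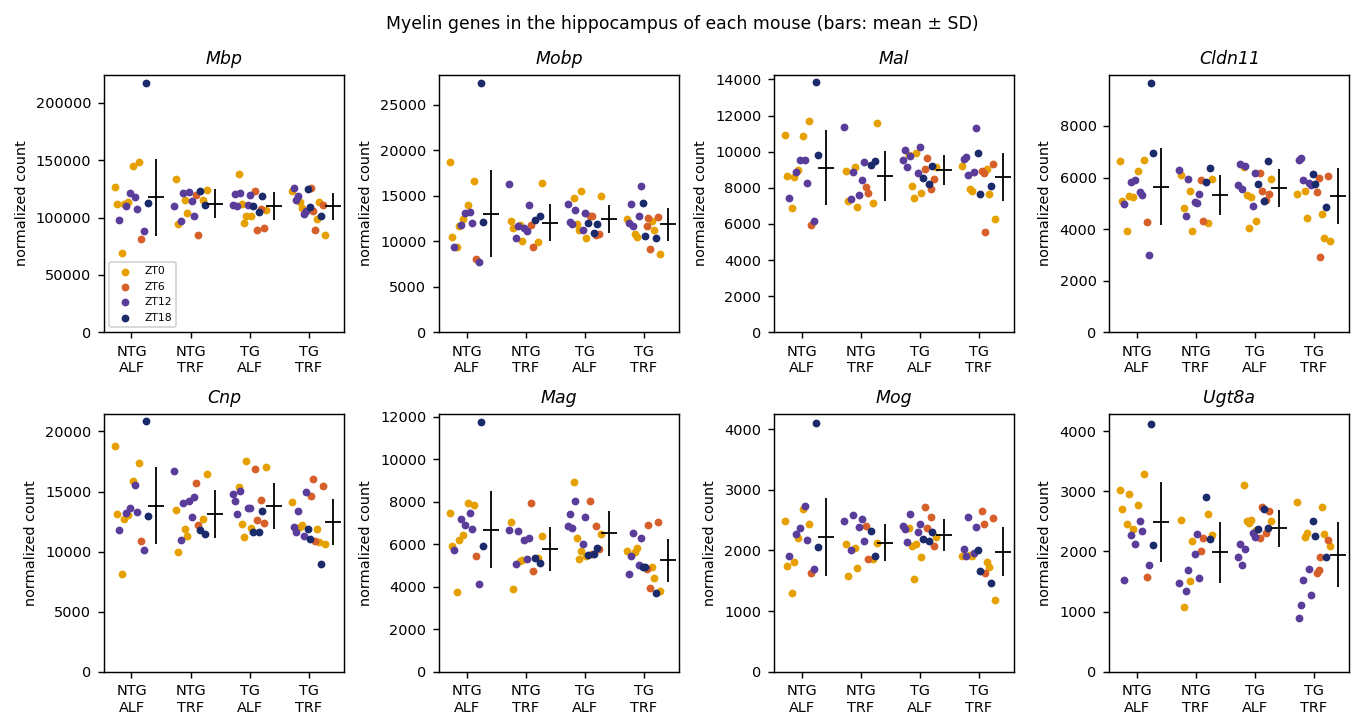
Normalized count of each of the 8 myelin genes in every animal, by genotype (NTG, TG) and feeding (ALF, TRF), with points coloured by time of sacrifice and bars for mean ± SD to the right of each group. The axes are linear and start at 0. The single NTG animal on ALF at ZT18 with Mbp at 217141 stands at the top of all 8 panels.

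The myelin genes varied together from animal to animal, with Ugt8a less tied to the rest. Additive terms for group and for time of sacrifice were first removed, so a time difference particular to a single group stayed in the values. The 28 pairs of genes then had a median Pearson r of 0.76 over 69 animals. The 21 pairs without Ugt8a had r between 0.70 (Mbp with Mal, Spearman's rho 0.64) and 0.90 (Mobp with Mal, rho 0.91). The 7 pairs with Ugt8a had r between 0.10 and 0.42. Ugt8a was closest to Mag (r = 0.42, permutation p = 0.00036, adjusted over the 28 pairs 0.00046, rho = 0.36, permutation p = 0.003), and r was 0.37 without the 2 animals farthest from the median. With Cldn11, Ugt8a had r = 0.10 (permutation p = 0.40, adjusted 0.40, rho = 0.10, permutation p = 0.41). All 21 pairs without Ugt8a reached the smallest p that 100000 permutations can give, 1e-05. Within the number series the median r over the 28 pairs was 0.75 in the 100s, 0.84 in the 300s, 0.82 in the series under 100 and 0.32 in the 7 animals of the 200s. Without NTG_ALF_325 the median was 0.73 and the 7 pairs with Ugt8a had r from 0.04 to 0.37. Within groups these 7 pairs had a median r of 0.66 in NTG mice on ALF (0.53 to 0.73, 16 animals), 0.42 in NTG mice on TRF (-0.11 to 0.46, 16 animals), 0.28 in TG mice on ALF (-0.02 to 0.57, 19 animals) and -0.13 in TG mice on TRF (-0.27 to 0.24, 18 animals). These values within groups came from the same additive removal, so they mix differences between animals with time differences particular to the group. In TG mice on TRF, for example, mean Ugt8a was 2411 at ZT0 and 1298 at ZT12. The difference between groups was not tested.

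**Figure D2:**
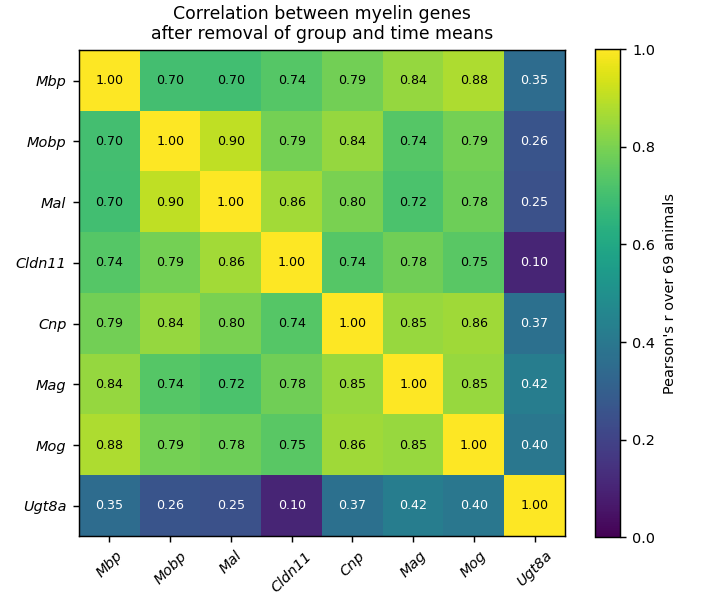
Pearson's r between each pair of the 8 myelin genes over 69 animals, after removal of additive terms for group and for time of sacrifice. Values run from 0 (dark) to 1 (bright). The row and column of Ugt8a hold values of 0.10 to 0.42 beside values of 0.70 to 0.90 elsewhere.

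The gene of the whole table closest to the mean of the 8 was Bcas1, a marker of myelinating oligodendrocytes, with r = 0.90 (rho = 0.88) over 69 animals. It was followed by Trf, the iron carrier transferrin, with r = 0.83, then Tmbim1 (0.83), S1pr5 (0.82), Prr18 (0.82), Septin4 (0.81), Adssl1 (0.80), Trp53inp2 (0.80), Csrp1 (0.80) and Plekhb1 (0.80). Other genes were closer to Ugt8a than any of the 7 myelin genes was. Among them were Ermn, a cytoskeletal protein of mature oligodendrocytes (rank 1, r = 0.83, rho = 0.84), and Enpp6, a marker of newly formed oligodendrocytes (rank 3, r = 0.73, rho = 0.66). The genes near Ugt8a were chosen after its values were seen. Mag, the nearest of the 7, ranked 188 among all genes by its r with Ugt8a. Whole lists were also set against Ugt8a. The level of 12 markers of newly formed oligodendrocytes had r = 0.41 with it, and -0.09 within the series under 100. That of 47 other myelin proteins had 0.60 (0.46 in that series), and that of 27 enzymes of myelin lipid synthesis 0.58 (-0.19). These values are a description, and the part of differences in dissection or library preparation between animals was not tested.

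Time-restricted feeding went with lower Ugt8a and lower Mag. Ugt8a had a mean normalized count of 2434 ± 498 (SD, n = 35) on ALF and 1967 ± 514 (SD, n = 34) on TRF. The lowest, median and highest values were 1529, 2379 and 4125 on ALF and 886, 2046 and 2913 on TRF, so the feedings overlapped, and the lower median was that of TRF. Mag was at 6589 ± 1425 (SD, n = 35) on ALF, from 3735 through a median of 6451 to 11744. On TRF it was at 5499 ± 1032 (SD, n = 34), from 3697 through 5329 to 7940. The ranges of Mag also overlapped over most of their length.

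In limma's model over both genotypes, with a term for time of sacrifice, Ugt8a fell by 0.34 ± 0.07 (SE) on the log2 scale on TRF, a fold of 0.792 with a 95% interval from 0.720 to 0.872 (Benjamini-Hochberg adjusted p = 0.0043 over 14260 genes, n = 69). It ranked 25 of all genes by p. Mag fell by 0.25 ± 0.07 (SE), a fold of 0.840 from 0.765 to 0.923 (limma adjusted p = 0.037). Thus 2 of the 8 myelin genes passed, both lower, where 1.68% of all genes did, 239 in number, with 0.975% lower. The same 2 were the only ones of the 8 under an unadjusted 0.05, where 18% of all genes were. The median log2 difference of the 8 was -0.09, beside 0.00 over all genes. In bulk tissue, fewer oligodendrocytes and less RNA per oligodendrocyte cannot be told apart.

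The other 6 did not pass, and all had negative estimates. Mog, at 2240 ± 469 (SD, n = 35) on ALF and 2049 ± 359 (SD, n = 34) on TRF, had a log2 difference of -0.12 ± 0.06 (SE, limma adjusted p = 0.28). Cnp had -0.11 ± 0.06 (adjusted p = 0.31), Cldn11 -0.08 ± 0.07 (0.51), Mal -0.06 ± 0.05 (0.54) and Mobp -0.06 ± 0.07 (0.65). Mbp, the most abundant of the 8, was at 113480 ± 24193 (SD, n = 35) on ALF and 110820 ± 12113 (SD, n = 34) on TRF. Its log2 difference was -0.01, with a 95% interval from -0.12 to 0.09 (limma adjusted p = 0.91).

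The call of Ugt8a held without each of the 69 animals in turn, with adjusted p from 0.0014 to 0.0093 in limma. Without the term for time the estimate was -0.33 ± 0.09 (SE) and its adjusted p was 0.059. The call of Mag was less firm: leaving out any one of 12 animals took its adjusted p to as much as 0.062. These were NTG_ALF_1, NTG_ALF_22, NTG_ALF_325, NTG_TRF_118, NTG_TRF_142, NTG_TRF_202, NTG_TRF_204, TG_ALF_124, TG_TRF_7, TG_TRF_104, TG_TRF_307 and TG_TRF_330. Within number series, the log2 difference of Ugt8a was -0.52 in the 100s (9 TRF against 14 ALF animals, adjusted p = 0.39), -0.52 in the series under 100 (6 against 9, 0.038) and -0.21 in the 300s (13 against 11, 0.87), all by limma. That of Mag was -0.28, -0.29 and -0.31 in the same series, with adjusted p of 0.52, 0.54 and 0.87. The 200s held 1 ALF animal and gave no value.

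**Figure D3:**
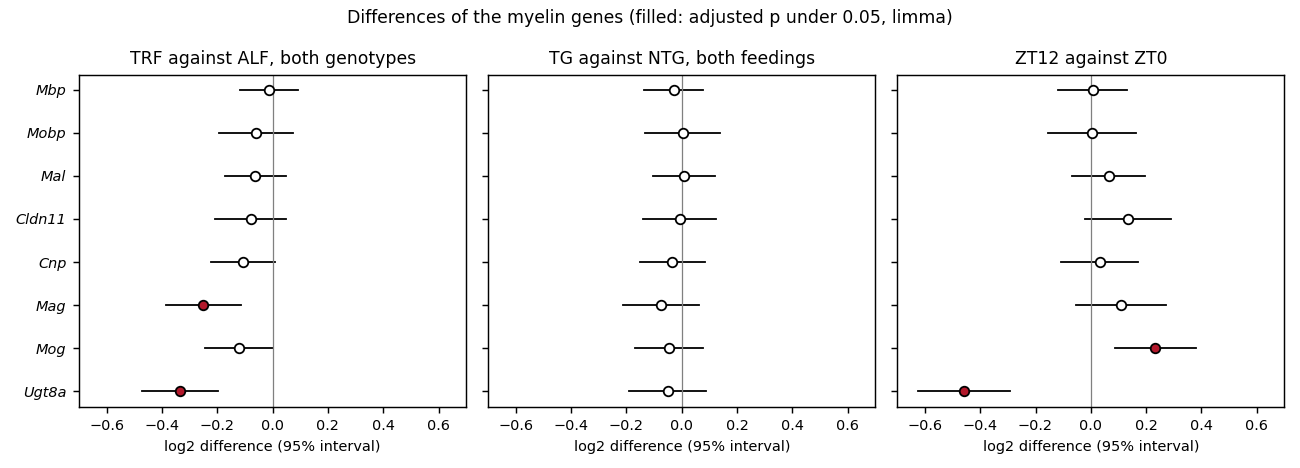
Log2 difference of each myelin gene with its 95% interval from limma, for TRF against ALF, TG against NTG and ZT12 against ZT0. Filled points passed an adjusted p of 0.05 over all 14260 genes. On the left Ugt8a and Mag are filled and lie below 0, in the middle no point is filled, and on the right Ugt8a lies below and Mog above 0.

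Other myelin and oligodendrocyte genes followed Ugt8a and Mag in part. Over all genes 0.975% fell, 0.701% rose and 18% had an unadjusted p under 0.05. Of 47 other myelin proteins, 7 fell on TRF and none rose, with a median log2 difference of -0.10 and 24 under an unadjusted 0.05. They included Ninj2 (-0.50), Adamts4 (-0.32), Trf (-0.27), Ermn (-0.20 ± 0.05 SE, limma adjusted p = 0.025), Gpr37 (-0.19) and Ndrg1 (-0.16). Of 32 regulators of the lineage, 2 fell, namely Erbb3, a neuregulin receptor (-0.31), and Gpr17, a receptor of late precursors (-0.24), with a list median of -0.06. Of 27 enzymes of myelin lipid synthesis other than Ugt8a, none passed in limma, 8 had an unadjusted p under 0.05, and the median was -0.03. Of the 16 precursor markers 1 fell, Gpr17 again, and of the 12 markers of newly formed oligodendrocytes none passed and 5 had an unadjusted p under 0.05.

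With the mean log2 level of the other myelin proteins as a covariate, an analysis chosen after the data were seen, Ugt8a kept a difference of -0.22 ± 0.06 (SE, limma adjusted p = 0.043). Mag then had -0.07 ± 0.04 (0.23), and Mbp had a positive value of 0.13 ± 0.03 (adjusted p = 0.014). Thalamus and choroid plexus markers, of neighbouring tissue, had negative estimates in the same comparison, and none was called. All 11 measured thalamus markers had negative estimates, with a median of -0.22, none called by limma and 4 under an unadjusted 0.05. Their summed level ran from 13154 to 26963 on ALF and from 11962 to 21028 on TRF. All 19 choroid plexus markers were also negative, with a median of -0.45, and none passed an adjusted or unadjusted 0.05. They ran from 2108 to 200732 in sum on ALF and from 2299 to 247379 on TRF. No thalamus or astrocyte marker was at 0 in any animal, and 4 of the 19 choroid plexus markers, Aqp1, Slc4a5, Tmem72 and Steap1, were at 0 in some. Of 14 astrocyte markers, Gfap (-0.20) and Aqp4 (-0.30) fell and Gjb6 (0.19) rose, and the list summed to 206856 to 331175 on ALF and 188535 to 299495 on TRF. With the choroid plexus level as a covariate Ugt8a had -0.33 (adjusted p = 0.0059) and Mag -0.25 (0.042). The part of the thalamus and astrocyte markers in the result was not tested.

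Within each genotype no myelin gene passed for feeding. In TG animals, where 0.54% of all genes were called, Ugt8a had a log2 difference of -0.36 ± 0.09 (SE, limma adjusted p = 0.054), Mag -0.32 ± 0.09 (0.078) and Mog -0.20 ± 0.08 (0.22). These 3 of the 8 had an unadjusted p under 0.05, as did 17.1% of all genes. In NTG animals, where 0.0281% of all genes were called, Ugt8a had -0.32 ± 0.10 (adjusted p = 0.27), the only one of the 8 under an unadjusted 0.05, where 7.47% of all genes were, and Mag had -0.19 ± 0.10 (0.71). The difference between the genotypes in the effect of feeding was -0.04 ± 0.14 (SE) for Ugt8a and -0.13 ± 0.14 for Mag (limma adjusted p = 0.996 for both). In that test none of the 8 passed at an adjusted or an unadjusted 0.05, where 0% and 5.22% of all genes did.

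The transgene went with no detected change in the 8 genes. Mbp was at 114680 ± 25105 (SD, n = 32) in NTG and 109998 ± 11725 (SD, n = 37) in TG animals. Over both feedings the log2 differences of TG against NTG lay between -0.07 (Mag) and 0.01 (Mal). None passed in limma, and none had an unadjusted p under 0.05, where 0.449% of all genes were called and 8.11% had such a p. The 95% interval was -0.14 to 0.08 for Mbp, -0.19 to 0.09 for Ugt8a and -0.21 to 0.06 for Mag. None was called, or had an unadjusted p under 0.05, on ALF alone or on TRF alone. On ALF 0.189% of all genes were called (0.119% higher and 0.0701% lower) and 7.3% had an unadjusted p under 0.05, and on TRF 0.133% (0.0982% higher and 0.0351% lower) and 6.94%. Among the 27 lipid enzymes 2 rose in TG animals, Fdft1 (0.45) and Hmgcs1 (0.37), both of cholesterol synthesis, and 36 of the 47 other myelin proteins had negative estimates, with none called by limma and 6 under an unadjusted 0.05.

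Ugt8a and Mog changed with the time of sacrifice, in opposite directions. Ugt8a was at 2467 ± 468 (SD, n = 25) at ZT0, lights on, and 1813 ± 432 (SD, n = 23) at ZT12, lights off. Its lowest, median and highest values were 1079, 2507 and 3288 at ZT0 and 886, 1781 and 2506 at ZT12. The median of ZT0 lay above every animal of ZT12. Mog was at 1949 ± 355 (SD, n = 25) at ZT0 and 2275 ± 266 (SD, n = 23) at ZT12, from 1181 through 1908 to 2686 and from 1699 through 2360 to 2735. The ranges of Mog overlapped, with the higher median at ZT12.

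By limma, Ugt8a fell by 0.46 ± 0.08 (SE) on the log2 scale from ZT0 to ZT12 (fold 0.728 with a 95% interval from 0.649 to 0.816, adjusted p = 2.1e-05). Mog rose by 0.23 ± 0.07 (SE), a fold of 1.18 from 1.06 to 1.301 (adjusted p = 0.013). Both calls held without each of the 69 animals in turn. That is 2 of 8 genes where 27.9% of all genes were called, a share near the background, and no other of the 8 had an unadjusted p under 0.05, where 39.7% of all genes had. The remaining 6 had log2 differences between 0.00 (Mobp) and 0.14 (Cldn11, adjusted p = 0.19). Within number series, Ugt8a had -0.55 in the 100s (limma adjusted p = 0.0095), -0.43 in the series under 100 (0.0029) and 0.01 in the 200s, where 3 animals at ZT12 stood against 4 at ZT0 (1.0). Mog had 0.20, 0.28 and 0.27 in these series, none of them called (adjusted p = 0.19, 0.099 and 1.0).

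In the test over all 4 times, Ugt8a (limma adjusted p = 2.8e-05) and Mog (0.034) passed, again 2 of 8, where 35.6% of all genes did. Cldn11 was the third of the 8 with an unadjusted p under 0.05 (adjusted 0.056), where 47.8% of all genes were. Mog lost that call without any one of NTG_ALF_107, NTG_TRF_118, TG_ALF_13 or TG_TRF_7, with adjusted p up to 0.066. With the number series as a covariate Ugt8a (limma adjusted p = 0.00014), Mog (0.030) and Cldn11 (0.0013) passed, with 5040 of all genes called. Between ZT6 and ZT18, all animals of the 300s, none of the 8 passed, where 8.04% of all genes did (4.27% higher and 3.77% lower at ZT18). Here 3 of the 8 had an unadjusted p under 0.05, where 20.6% of all genes had: Cldn11 with 0.28 ± 0.12 (SE, limma adjusted p = 0.14), Mbp with 0.24 ± 0.10 (0.12) and Mal with 0.21 ± 0.10 (0.21), all higher at ZT18. Ugt8a had 0.24 ± 0.13 (0.26).

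The fall of Ugt8a between ZT0 and ZT12 was seen on both feedings and was deepest in the estimates for TG mice on TRF. In these mice Ugt8a was at 2087, 2235, 2296, 2300, 2733 and 2816 at ZT0. It was at 886, 1110, 1269, 1522 and 1704 at ZT12, so every animal at ZT12 lay below every animal at ZT0. In TG mice on ALF it was at 2359, 2467, 2507, 2510, 2524 and 3108 at ZT0 and at 1781, 1900, 2046, 2119, 2239 and 2301 at ZT12, again without overlap. The 5 TG mice on TRF at ZT12 also lay below all 6 TG mice on ALF at ZT12. In NTG mice on ALF the range was 2372 to 3288 at ZT0, with a median of 2775, and 1529 to 2506 at ZT12, with a median of 2194. In NTG mice on TRF it was 1079 to 2614 at ZT0, with a median of 2223, and 1347 to 2281 at ZT12, with a median of 1618. The times overlapped in both groups of NTG mice.

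The log2 difference of ZT12 against ZT0 was -0.92 ± 0.16 (SE) for Ugt8a in TG mice on TRF, a fold of 0.528 from 0.423 to 0.658 (limma adjusted p = 0.00011, with 3.55% of all genes called). It was the only one of the 8 called there, and the call held without each animal in turn. The values in the other groups were -0.32 ± 0.15 in TG mice on ALF (adjusted p = 0.25, 2.22% of genes called), -0.43 ± 0.15 in NTG mice on ALF (0.094, 2.17%) and -0.20 ± 0.15 in NTG mice on TRF (0.85, 0.596%). Over both genotypes, Ugt8a passed on ALF (-0.38 ± 0.11, limma adjusted p = 0.011) and on TRF (-0.56 ± 0.11, 0.00042). Mog passed on TRF (0.32 ± 0.10, 0.046) and had 0.16 ± 0.10 on ALF (0.24). So 1 of 8 was called on ALF, where 15.7% of all genes were, and 2 of 8 on TRF, where 6.35% were.

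Whether the effect of time differed between feedings was tested directly. Over both genotypes the difference for Ugt8a was -0.18 ± 0.15 (SE, limma adjusted p = 0.97). In TG mice alone it was -0.60 ± 0.22 (unadjusted p = 0.0082, limma adjusted p = 1.0), and the test of genotype by feeding by time gave -0.84 ± 0.30 (unadjusted p = 0.0078, adjusted p = 1.0). None of the 8 passed in any of these tests by limma, where 0% of all genes were called. At an unadjusted 0.05 there was 1 of the 8 in each: Mobp over both genotypes (3.43% of all genes), Ugt8a in TG mice (2.33%) and Ugt8a in the test with genotype (1.83%). Taken by time, TRF against ALF gave Ugt8a -0.49 ± 0.11 at ZT12 (limma adjusted p = 0.061, 0.00701% of genes called) and -0.31 ± 0.11 at ZT0 (0.16, 0.0491% called, 0.021% higher and 0.0281% lower). None of the 8 was called at either time. At an unadjusted 0.05 there was 1 of 8 at ZT12 (Ugt8a, against 4.79% of all genes) and 3 of 8 at ZT0 (Ugt8a, Mag and Cnp, against 17%). In TG mice at ZT12 it gave -0.70 ± 0.16 (unadjusted p = 4.5e-05, adjusted p = 0.11). These comparisons share animals with one another, so their values stand side by side and do not add to each other.

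By mean level over feeding and time, Ugt8a was ordered ALF at ZT18 (2740 ± 802, n = 5), ALF at ZT0 (2696 ± 306, n = 13), TRF at ZT18 (2358 ± 373, n = 5), ALF at ZT6 (2305 ± 467, n = 5), TRF at ZT0 (2219 ± 497, n = 12), ALF at ZT12 (2076 ± 283, n = 12), TRF at ZT6 (1943 ± 244, n = 6) and TRF at ZT12 (1527 ± 388, n = 11), with errors as SD. In this order each mean differed from the next by less than the larger of their 2 SDs, except the last step. The mean of ALF at ZT18 included NTG_ALF_325, at 4125. Mag had its 4 highest means on ALF, from 6913 to 6331, and its 4 lowest on TRF, from 5903 to 4798. The highest of these means, that of ALF at ZT18, included NTG_ALF_325, at 11744. By median, Mag on ALF at ZT18 was at 5829, below TRF at ZT6 (5866) and TRF at ZT12 (6188), so the medians were not split by feeding. Every step between neighbours in Mag was smaller than the larger SD. By mean, Mog was highest on ALF at ZT18 (2561 ± 868, SD, n = 5) and lowest on TRF at ZT0 (1822 ± 259, SD, n = 12), with all steps smaller than the larger SD. The mean of Mog on ALF at ZT18 also included NTG_ALF_325, at 4106. Its median there was 2195, below that of ALF at ZT12 (2329).

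**Figure D4:**
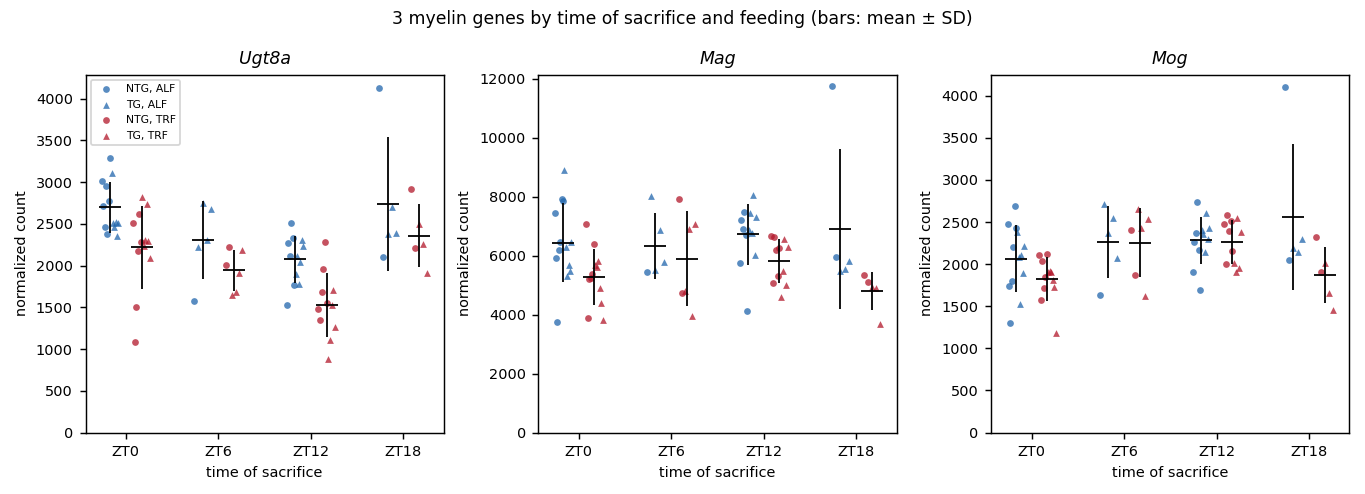
Normalized counts of Ugt8a, Mag and Mog in every animal by time of sacrifice, for ALF (blue) and TRF (red), with circles for NTG and triangles for TG animals and bars for mean ± SD. The axes are linear and start at 0. Ugt8a is lowest on TRF at ZT12, at 1527 ± 388, Mag lies lower on TRF than on ALF at each time in its means, and Mog on TRF is higher at ZT12 than at ZT0.

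Of 32 regulators of the oligodendrocyte lineage, 11 fell from ZT0 to ZT12 and 1 rose, with a median log2 difference of -0.12 beside 0.00 over all genes, of which 13.6% fell and 14.4% rose. Those that fell included the lineage transcription factors Sox10 (-0.38 ± 0.06 SE, limma adjusted p = 2.3e-06), Olig2 (-0.33), Olig1 (-0.30), Nkx2-2 (-0.42), Sox6 (-0.26) and Myrf (-0.26), the factor that drives myelin gene transcription. Erbb3 (-0.44), Gpr17 (-0.40), Notch1 (-0.27), the RNA-binding protein Qki (-0.24) and Myt1 (-0.16) also fell. Hes5, a target of Notch, rose by 0.53. Of 16 precursor markers 8 fell, among them Cspg4 (-0.31) and Cacng4 (-0.33), and 2 rose, Lhfpl3 (0.17) and Neu4 (0.16), while Sox6 and Gpr17 stand in both lists.

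Of 47 other myelin proteins, 13 fell from ZT0 to ZT12 and 3 rose, with a median of -0.03. These 16 of 47 stand beside 27.9% of all genes called, a share near the background. Adamts4 (-0.48), the gap-junction protein Gjb1 (-0.39), Cryab (-0.39), Plxnb3 (-0.38), Ermn (-0.37) and Anln (-0.34) were among those that fell. Pllp (0.27), Septin4 (0.14) and Tspan2 (0.14) rose. Of 27 lipid enzymes, Elovl7 (-0.51), Elovl6 (-0.19) and Fads2 (-0.14) fell and Degs1 (0.09) rose, 4 called beside the same 27.9% of all genes. From ZT6 to ZT18, 5 of the 47 fell and 4 rose, where 3.77% of all genes fell and 4.27% rose. The largest of these differences were those of Opalin (-1.03 ± 0.15 SE, limma adjusted p = 1.4e-06), Pllp (-0.74), Anln (0.57), Cryab (0.54) and Ermn (0.44). Choroid plexus markers were all 19 negative from ZT0 to ZT12, with a median of -0.58, none called by limma and 1 under an unadjusted 0.05. With their level as a covariate Ugt8a had -0.45 (limma adjusted p = 3.2e-05) and Mog 0.23 (0.013).

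**Figure D5:**
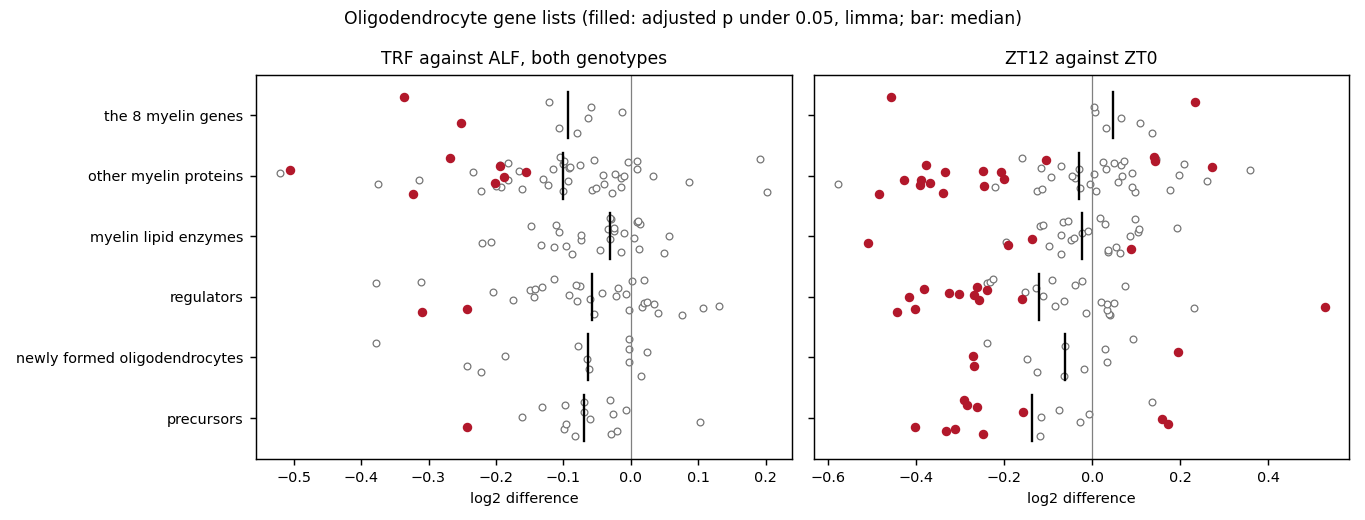
Log2 difference of every measured gene in 6 lists of myelin and oligodendrocyte genes, for TRF against ALF and for ZT12 against ZT0. Filled points passed an adjusted p of 0.05 in limma, and bars mark list medians. On the right most filled points of the regulators and precursor markers lie below 0, and the bar of the 8 myelin genes lies at 0.05.

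Promoters are shown for the 3 genes that were called for feeding or time. Whether these genes differed from the other 5 was not tested. The sequences are those of RefSeq (build GRCm38.p6), 5' to 3' on the gene's strand, up to 250 bases before the start and outside every annotated transcript of the gene. For 7 of the 8 genes a window was used, and that of Mbp was not analysed here. The motifs searched on both strands were the SOX family core ACAAAG, the MYRF motif in the form CTGGCAC or in the form CTGGTAC, and the TATA box TATAAA. Their matches did not overlap in these windows. Capitals mark matches. The windows are Ugt8a at chr3:125938683-125938902 (minus strand, 220 bases), Mag at chr7:30914923-30915172 (minus, 250 bases), Mog at chr17:37023399-37023648 (minus, 250 bases) and, for comparison, Mobp at chr9:120149492-120149706 (plus, 215 bases).
Ugt8a: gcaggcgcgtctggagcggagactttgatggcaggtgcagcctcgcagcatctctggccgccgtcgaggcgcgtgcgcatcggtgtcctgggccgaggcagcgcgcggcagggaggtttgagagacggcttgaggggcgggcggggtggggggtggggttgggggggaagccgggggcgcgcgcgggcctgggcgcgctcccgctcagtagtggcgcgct
Mag: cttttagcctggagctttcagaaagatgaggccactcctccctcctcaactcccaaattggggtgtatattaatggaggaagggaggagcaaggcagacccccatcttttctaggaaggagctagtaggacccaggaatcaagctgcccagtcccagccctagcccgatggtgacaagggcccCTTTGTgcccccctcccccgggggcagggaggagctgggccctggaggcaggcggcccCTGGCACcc
Mog: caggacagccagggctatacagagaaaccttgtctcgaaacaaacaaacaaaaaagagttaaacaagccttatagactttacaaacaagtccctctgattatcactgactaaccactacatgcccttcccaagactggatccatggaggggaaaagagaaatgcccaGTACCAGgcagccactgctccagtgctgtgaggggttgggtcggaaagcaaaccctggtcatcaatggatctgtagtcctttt
Mobp: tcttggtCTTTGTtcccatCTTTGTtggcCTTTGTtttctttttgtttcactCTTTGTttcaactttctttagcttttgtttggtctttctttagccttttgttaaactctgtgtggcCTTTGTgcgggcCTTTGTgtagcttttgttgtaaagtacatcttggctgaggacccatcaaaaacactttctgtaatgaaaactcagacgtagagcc

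Among 32851 mouse promoter windows of 250 bases, ACAAAG stood in 16.5%, CTGGCAC in 4.19%, CTGGTAC in 1.83% and TATAAA in 12.4%. The window of Ugt8a held none of the 4. Mag held 1 ACAAAG and 1 CTGGCAC, and Cnp held the same pair. Mog held 1 CTGGTAC on the opposite strand. Mobp held 6 copies of ACAAAG, all on the opposite strand, within 215 bases. Mal and Cldn11 held none. A match is a description of these letters and does not show that a factor binds there.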

How the data were processed

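Hippocampal poly-A RNA of 69 mice (70 libraries) was sequenced. Reads were trimmed with Trimmomatic, per the labels' protocols. HISAT2, featureCounts and DESeq2 were used with build GRCm38, per the submitters' processing notes, and their versions, settings and annotation are not given in the sources used here. The authors deposited 1 table of signal values: read counts divided by a size factor per library (DESeq2-normalized counts), so no count test was run. Because read totals are not kept, depth per library is unknown, and counting error cannot be separated from the spread between animals. The table holds 14260 genes, and a minimum mean of 10 removed 0.

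The 2 libraries numbered 232 and 232R in NTG mice on TRF at ZT12 were averaged as 1 animal. limma 3.58.1 (R 4.3.3, trend and robust variances) was run on log2(value + 1), with 4 group means and terms for time, or with a mean for every group and time for comparisons at single times. p-values were Benjamini-Hochberg adjusted over 14260 genes with a threshold of 0.05. Fold changes are on the log2(value + 1) scale. The method was tested on simulated data in which every gene and animal was drawn independently. That simulation does not cover genes that vary together, number series or outlying animals. Correlations used 100000 permutations (scipy 1.17.1).

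All 8 genes were tested in every comparison, and in several comparisons the text prints values for only some of them. The text also names the 10 genes with the highest r to the mean of the 8, and genes called, or of the largest difference, in each list. Members and lists were chosen with earlier results of these data known. Lists of microglia, neurons, endothelium, ependyma, axon partners, clock genes and Schwann cells were computed too. For TRF against ALF over both genotypes their medians were -0.02, 0.03, -0.05, -0.10, -0.08, 0.00 and -0.12, none of their genes was called by limma, and 0 of 12, 2 of 12, 3 of 10, 1 of 10, 5 of 17, 4 of 18 and 1 of 4 had an unadjusted p under 0.05, beside 18% of all genes. Exon lengths and gene positions came from GENCODE vM21 (GRCm38). No replicate numbers were shared between groups. Some genes of the lists are counted in them and not reported here by name.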

Additional observations from a re-analysis of the deposited data

Results flagged for a closer look

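Each myelin gene was searched for animals far from the rest of their own group and time, in sets of 4 to 7 animals. Of 80 sets, 7 had such an animal, where chance gives about 1 in 20, or 4. The sets of different genes hold the same animals, and the genes vary together. The 80 sets are therefore not independent, and whether 7 exceeds chance was not tested. In NTG mice on ALF at ZT0, NTG_ALF_107 was lowest for Mbp (69103, nearest other 111569) and for Mag (3735, nearest other 5932). In NTG mice on ALF at ZT12, NTG_ALF_322 was lowest for Cldn11 (2989, nearest other 4963). In TG mice on ALF at ZT0, TG_ALF_124 was highest for Ugt8a (3108, nearest other 2524). In TG mice on TRF at ZT0, TG_TRF_7 was lowest for Mog (1181, nearest other 1727). In TG mice on TRF at ZT6, TG_TRF_315 was lowest for Mal (5564, nearest other 8815) and for Cldn11 (2907, nearest other 5447). NTG_ALF_107 is also the one whose library correlated least with the others, with a mean r of 0.939.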

How the results depend on the processing

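The number of the 8 myelin genes called was recomputed under each alternative, and is given with the number called of all genes. For TRF against ALF over both genotypes it went from 2 (239 of all genes) to 1 with the same total per library (193), quantile normalization (271), only ZT0 and ZT12 animals (61), the number series as a covariate (194), or without the 5 libraries of lowest correlation (55), Mag being lost each time (adjusted p 0.051 to 0.098), and to 0 with no term for time (30). In TG mice it went from 0 (0.54% of all genes) to 1, Ugt8a, with a mean of at least 100 (91 genes), the same total per library (0.715%) or quantile normalization (0.863%), and to 2 with array weights (2.12%). For TRF against ALF at ZT12 it went from 0 (1) to 1 with the number series as a covariate (18) and with array weights (29). Array weights gave 5 in place of 2 for time of sacrifice (5865 of all genes in place of 5073) and 2 in place of 0 for ZT18 against ZT6 (2264 in place of 1146), Mag and Cnp, both lower at ZT18. Time of sacrifice gave 1 without the 5 libraries (4090). With the level of other myelin proteins as a covariate, added after seeing the data, the count was 1 in TG mice, Mbp (119 of all genes). It was 6 for ZT12 against ZT0 (4692 in place of 3985) and 7 for time (5624). For feeding over both genotypes it stayed at 2 (427 of all genes), with Mag lost and Mbp, higher on TRF, called beside Ugt8a. Without each replicate in turn, counts ran from 1 to 2 for feeding over both genotypes, 0 to 2 in TG mice, 1 to 3 for time and 0 to 1 at ZT12. Ugt8a in TG mice passed in 16 of 69 such fits and Mag in 1. The median r between members was 0.32 within the 200s. Ugt8a at ZT12 against ZT0 changed sign within the 200s (0.0082). The causes were not tested. No paired analysis was possible because the groups share no replicate numbers. Ugt8a, for feeding over both genotypes and for ZT12 against ZT0, and Mog, for ZT12 against ZT0, kept their calls under every other alternative run across number series, except Ugt8a for feeding without a term for time (adjusted p = 0.059, limma). Few animals at ZT6 and ZT18, and read depths not kept in normalized values, limit all of this.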
